A study of Mus musculus with 18 samples.

Results

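The transcriptome of unstimulated brown adipocytes transfected with LNA2, an antisense oligonucleotide directed against the long non-coding RNA Gm15551, was compared with that of cells transfected with the non-targeting oligonucleotide ctrlA. The comparison comprised 6 of the 18 libraries of the series, 3 with LNA2 and 3 with ctrlA, chosen by their labels and paired by the replicate numbers 2, 3 and 4. Of 54347 listed genes, 14949 had enough counts to be tested and all of these were examined. Both groups were wt1-SAM cells, 1 immortalised line of murine brown preadipocytes with SAM, a CRISPR activation system, which the controls therefore share. The cells were differentiated with IBMX, indomethacin, insulin, dexamethasone, T3 and rosiglitazone, reverse transfected on day 4 with 1.4 µl of a 10 µM LNA stock for 500000 cells, and harvested on day 7 with no isoproterenol. Where other libraries are mentioned, they are unstimulated cells with LNA1, a second oligonucleotide against Gm15551, and cells given 1 µM isoproterenol, a β-adrenergic agonist, for 24 h.

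LNAs of the gapmer type are short antisense oligonucleotides with locked nucleic acid ends around a DNA core. When the oligonucleotide pairs with an RNA, the enzyme RNase H1 cuts the RNA strand opposite the DNA core. Such oligonucleotides are used in lncRNA studies because they also reach transcripts that stay in the nucleus, and RNAs that contain part of the target sequence can be bound as well. Brown adipocytes are mitochondria-rich fat cells that produce heat through the uncoupling protein Ucp1 when their β-adrenergic receptors are stimulated.

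The sequences are shown because the later search for complementary sites rests on them. Each is written 5′ to 3′ as the study lists it.
LNA2: aagtagcacggcgttg
LNA1: gatgactgagattaga
ctrlA: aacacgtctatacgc
Gm15551 site of LNA2: CAACGCCGTGCTACTT
The last line is the stretch of the spliced Gm15551 transcript that pairs with LNA2, with capitals for every base that pairs. LNA2 matched 16 of 16 bases at positions 241 to 256 of the 535-base transcript, in exon 2 (GRCm38, chr3:126667608-126667623, minus strand). LNA1 matched at positions 347 to 362 of the same transcript, and no stretch of 6 or more bases there paired with ctrlA.

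The libraries held 13005686 to 13451064 counts with LNA2 and 11927769 to 19723021 with ctrlA. The 2 libraries numbered 2 stood apart from the other 4, with 5.8% and 8.31% of counts from ribosomal RNA against 0.285% to 0.689%, and 8.617% and 8.765% from mitochondrial genes against 3.877% to 4.973%. This difference lay between replicate numbers and was present in both arms. Libraries with the same number deviated from their group means together, with a Pearson r across genes of 0.7, 0.349 and 0.47 for numbers 2, 3 and 4, and the number was therefore a term in the model. Numbers 3 and 4 were less distinct from each other, with r of 0.34 between LNA2 replicate 4 and ctrlA replicate 3 and 0.279 between LNA2 replicate 3 and ctrlA replicate 4, while r between number 2 and the others was -0.571 to -0.438. Adipocyte markers were abundant in all 6 libraries. Adipoq, the adipokine adiponectin, had 512 to 771 CPM (counts scaled to library size) with LNA2 and 500 to 740 with ctrlA, and Pparg, the master regulator of adipogenesis, 117 to 184 and 138 to 199. The brown markers differed in level at rest. Ucp1 had 0.638 to 1.57 CPM with LNA2 and 1.15 to 1.53 with ctrlA, Dio2 had 0 to 2 counts per library, and Cidea, a lipid droplet protein, had 3.4 to 8.67 and 5.63 to 9.54 CPM. Elovl3, a fatty acid elongase, was abundant with 201 to 312 and 268 to 352 CPM. Prdm16, a transcriptional regulator of brown fat, had 8.01 to 9.52 CPM in replicates 3 and 4 of both arms but 0.743 and 1.65 CPM in the libraries numbered 2. The muscle regulator Myod1 and the macrophage marker Adgre1 were at 0 counts in all 6 libraries, and Ptprc had 1 count in ctrlA replicate 3 and 0 elsewhere, whereas other macrophage markers were present, such as Cd68 with 13.7 to 26.1 CPM with LNA2 and 7.83 to 12 CPM with ctrlA. The labels do not say whether replicates came from separate cultures, so p-values measure the spread between these libraries.

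The targeted transcript was checked first. Gm15551 (ENSMUSG00000086679.2, chr3:126667329-126669044, minus strand), annotated as antisense and lying within the span of the protein kinase gene Camk2d, had 13, 3 and 1 counts in LNA2 replicates 2, 3 and 4 and 14, 8 and 7 in the corresponding ctrlA libraries. These are 1.07, 0.213 and 0.07 CPM against 0.794, 0.577 and 0.571 CPM, means of 0.452 ± 0.543 and 0.648 ± 0.127 CPM (SD, n = 3 each). LNA2 was lower in 2 of 3 pairs and the groups overlapped, because LNA2 replicate 2 had the highest of the 6 values. The log2 fold change was -0.78 (SE 0.61, adjusted p 0.983 in edgeR, fitted without a filter on low counts). In the exact two-sided permutation test of the CPM values p was 0.5, where 0.1 is the smallest value that 3 against 3 libraries allow, and 0.5 for sign changes within pairs, where 0.25 is the smallest. A reduction of Gm15551 was thus not detected in these libraries, where 3 counts correspond to 0.210 to 0.248 CPM with LNA2. Without LNA2 replicate 2 the log2 fold change was -1.78, without both libraries numbered 2 it was -1.98, and without both libraries numbered 4 it was -0.23. The host gene Camk2d, which encodes a subunit of the calcium/calmodulin-dependent kinase CaMKII, had 109, 121 and 102 CPM with LNA2 and 113, 123 and 120 CPM with ctrlA. Its log2 fold change was -0.10 (SE 0.07, adjusted p 0.518). Of the 4 tested members of the CaMKII family list 0 were called by the limits given below, where 2.79% of all genes were.

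Calls required an adjusted p under 0.05 in edgeR's quasi-likelihood test together with a log2 fold change beyond 0.5 in either direction. By these limits 417 of 14949 genes were called (2.79%). With LNA2, 263 genes were higher (1.76%) and 154 lower (1.03%) than with ctrlA. Higher genes changed more, with a median log2 fold change of 0.87 and 102 genes beyond a factor of 2, whereas the lower genes had a median of -0.70 and 23 genes beyond it. Over all genes tested the median was -0.02. The higher genes also had lower levels, with a median of 7.85 CPM against 24.6 CPM for the lower genes. The part of level in these sizes was not tested. The 6 libraries did not overlap between groups for 257 of the called genes, against 8.75% of all genes tested. Nearly all called genes were protein coding, 249 of the higher and 150 of the lower, against 82.9% of the genes tested.

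**Figure D1:**
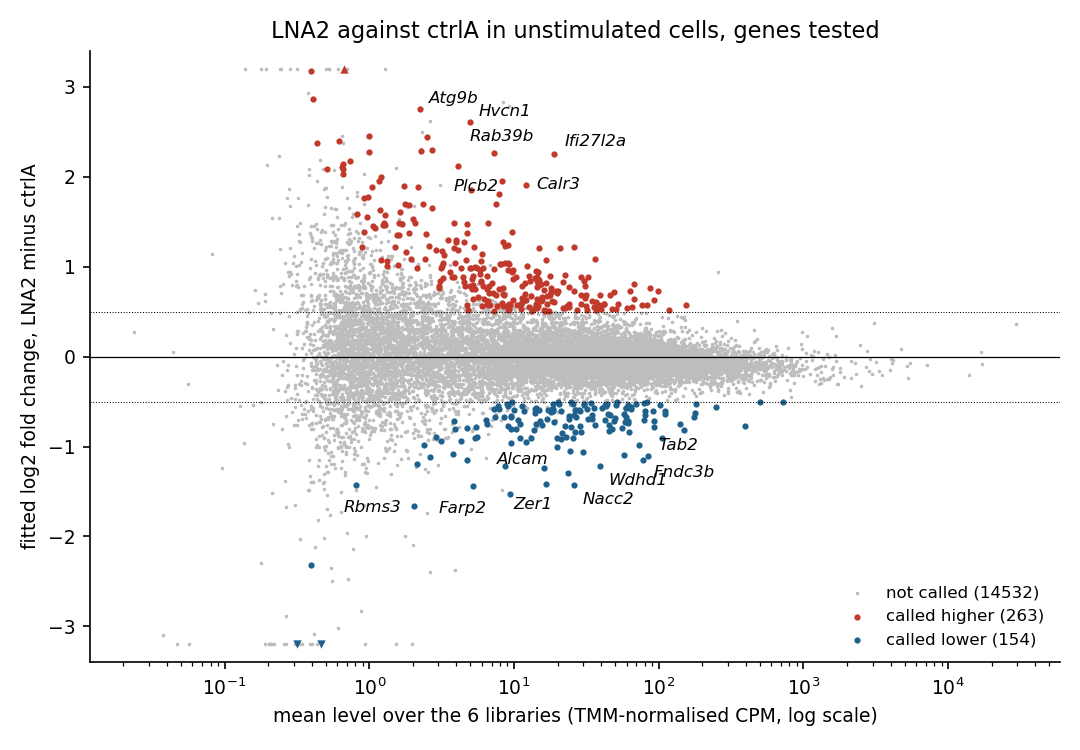
Each point is a tested gene, placed by its mean level over the 6 unstimulated libraries in CPM (log scale) and by the fitted log2 fold change of LNA2 minus ctrlA, with triangles for called genes beyond the vertical axis. The 263 genes called higher (red) and the 154 called lower (blue) lie beyond the dotted limits of 0.5.

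The number of calls depended on the pairing. Without the replicate term 29 genes were called (0.194%; 19 higher and 10 lower), and all 29 were among the 417. When both libraries of a number were left out, 278 genes were called without replicate 2, 249 without replicate 3 and 32 without replicate 4, and leaving out single libraries gave 177 (LNA2 replicate 4), 238 (ctrlA replicate 4), 245 (ctrlA replicate 3) or more. Of the 30 genes described next, 26 kept their call in every fit that left out a single library, 13 without the replicate term and 11 without replicate 4. Nacc2 was called under all 16 alternatives (adjusted p up to 0.0483), and Plcb2 lost its call in 1 of them, that without replicate 4 (adjusted p 0.0628).

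Among the genes that were higher with LNA2, 159 did not overlap between groups, moved the same way in every pair and averaged 1 CPM or more, and the 15 with the largest change are described here. Several act at the cell membrane or in calcium and lipid signalling. Such groupings of the described genes by function serve their order only and were not tested. Plcb2, a phospholipase C that splits phosphatidylinositol bisphosphate downstream of G-protein-coupled receptors, had 3.88, 7.94 and 8.19 CPM in LNA2 replicates 2, 3 and 4 and 1.42, 1.37 and 1.63 CPM in ctrlA. All 3 LNA2 libraries lay above all ctrlA libraries, with the smallest difference in replicate 2, and the log2 fold change was 2.12 (SE 0.25, adjusted p 0.000191). Orai2, a subunit of store-operated calcium channels, went from 3.42 ± 0.558 to 12.3 ± 4.52 CPM (SD, n = 3 per group), with a log2 fold change of 1.81 and an SE of 0.22. Hvcn1, the voltage-gated proton channel, had 2.73, 8.01 and 15.3 CPM with LNA2 against 0.908, 1.23 and 1.63 CPM (log2 fold change 2.61, SE 0.35, adjusted p 0.00051). Its LNA2 values ranged widely while staying above all ctrlA values, and its exons overlap those of Tctn1 on the opposite strand. Pdpn, the mucin-type membrane protein podoplanin, had 3.63, 2.76 and 3.92 CPM against 0.851, 1.15 and 0.734 CPM (log2 fold change 1.89, SE 0.29, adjusted p 0.00133). Il2ra, the α chain of the interleukin-2 receptor, was near the lower end of detection with 0.991 to 2.38 CPM against 0.216 to 0.653 CPM (log2 fold change 1.95, adjusted p 0.0283). Its call was lost in 4 of the 6 fits that left out a library, those without replicate 3 or 4 of either group.

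Atg9b, a lipid scramblase that supplies membrane to autophagosomes, had 2.48, 3.69 and 5.67 CPM with LNA2 and 0.454, 0.794 and 0.408 CPM with ctrlA. Its groups did not overlap, the log2 fold change was 2.75 (SE 0.34, adjusted p 0.000264), and Nos3 overlaps its exons from the other strand. Calr3, a relative of the endoplasmic reticulum chaperone calreticulin, had 17.4, 17.6 and 22 CPM against 5.96, 4.11 and 5.14 CPM. The means were 19 ± 2.59 and 5.07 ± 0.924 CPM (SD, n = 3 per group), with a log2 fold change of 1.91 and an SE of 0.18 (adjusted p 7.72e-05). Fbxo2, the F-box subunit of a ubiquitin ligase for glycoproteins, went from 3.33 ± 1.08 to 13.3 ± 5.45 CPM (SD, n = 3 per group), with a log2 fold change of 1.95 and an SE of 0.34 (adjusted p 0.00343).

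Some of the other described rises are of genes that move cargo or build the actin cytoskeleton. Kif5c, a kinesin heavy chain, rose by 2.44 (SE 0.30) and Rab39b, a small GTPase of vesicle traffic, by 2.26 (SE 0.26) on the log2 scale. Spire2, which nucleates actin filaments, rose by 1.85 (SE 0.27), and Pfn2, a profilin, by 1.70 (SE 0.19). Pfn2 had 11.6, 12 and 10.6 CPM with LNA2 and 4.88, 3.1 and 2.77 CPM with ctrlA, so its LNA2 values were closer together than its ctrlA values. Myo1g, a class I myosin, rose by 1.88 (adjusted p 0.0258), but 5 of the 6 fits that left out a library did not call it, and it held in that without ctrlA replicate 2. Ranbp3l, a Ran-binding protein, rose by 2.28 (SE 0.33). Ifi27l2a, an interferon-inducible gene, had 43, 22.8 and 26.3 CPM with LNA2 and 13.8, 3.32 and 3.83 CPM with ctrlA. Both libraries numbered 2 were the highest of their group, and within each number LNA2 was above ctrlA (log2 fold change 2.25, SE 0.20, adjusted p 7.72e-05 with the replicate term and 0.312 without it).

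Of the lower genes, 79 met the same conditions, and the 15 with the largest change are given. Nuclear, RNA-binding and protein turnover factors are given first. Nacc2, a BTB-domain repressor that recruits the chromatin remodelling complex NuRD, had 13.5, 13.7 and 14.6 CPM with LNA2 and 27.9, 46.4 and 40.6 CPM with ctrlA. The LNA2 libraries were nearly equal, ctrlA replicate 2 was the lowest control, and the groups did not overlap (log2 fold change -1.43, SE 0.18, adjusted p 0.00027). Rbms3, an RNA-binding protein, had 1.9, 0.425 and 0.77 CPM against 3.29, 2.96 and 2.94 CPM and the largest fall of the 15 (log2 fold change -1.66, SE 0.27, adjusted p 0.00208). Wdhd1, a component of the DNA replication machinery, had 32.1, 20 and 19.8 CPM against 57.6, 54.1 and 52.7 CPM. The means were 24 ± 7.06 and 54.8 ± 2.51 CPM (SD, n = 3 per group), with a log2 fold change of -1.22 and an SE of 0.14 (adjusted p 0.000191). Zer1, a substrate receptor of a ubiquitin ligase, went from 24.6 ± 8.9 to 8.92 ± 0.815 CPM (SD, n = 3 per group), with a log2 fold change of -1.42 and an SE of 0.17.

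The other described falls include genes of signalling, adhesion and the cytoskeleton. Tab2, an adaptor of the kinase TAK1 in inflammatory signalling, had 57.5, 54.1 and 47.1 CPM with LNA2 and 99.7, 118 and 127 CPM with ctrlA (log2 fold change -1.11, SE 0.13, adjusted p 0.000191). Alcam, a cell adhesion molecule of the immunoglobulin family, had 17.5, 11.9 and 12 CPM against 32.8, 32 and 35.8 CPM (log2 fold change -1.29, SE 0.15). For both genes every LNA2 library was below every ctrlA library. Fndc3b, a fibronectin type III domain protein, had 41.8, 52.7 and 47.6 CPM against 68.3, 126 and 130 CPM (log2 fold change -1.15, SE 0.13). The fall of Fndc3b was smaller within number 2 than within numbers 3 and 4, as it was for Nacc2 and Zer1. Farp2, a guanine nucleotide exchange factor, fell by 1.53 (SE 0.22), Asap1, an Arf GTPase-activating protein, by 1.09 (SE 0.15) and the formin Fmnl2 by 1.05 (SE 0.18) on the log2 scale. Abtb2 and Btbd9, which share a BTB domain with Nacc2, fell by 1.44 (SE 0.19) and 1.24 (SE 0.20), and Bbs9, a subunit of the BBSome that carries cargo to cilia, by 1.15 (SE 0.18). Exons of Farp2, Nacc2, Btbd9, Wdhd1 and Afap1l1 overlap annotated genes on the opposite strand. Hspb7, a small heat shock protein (log2 fold change -1.19, adjusted p 0.0366), and Afap1l1, an actin-filament-associated protein (-1.12, adjusted p 0.045), had the largest adjusted p among the 15. Hspb7 lost its call in 5 of the 6 fits without a library, all but that without ctrlA replicate 3, and Afap1l1 in 6 of 6.

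**Figure D2:**
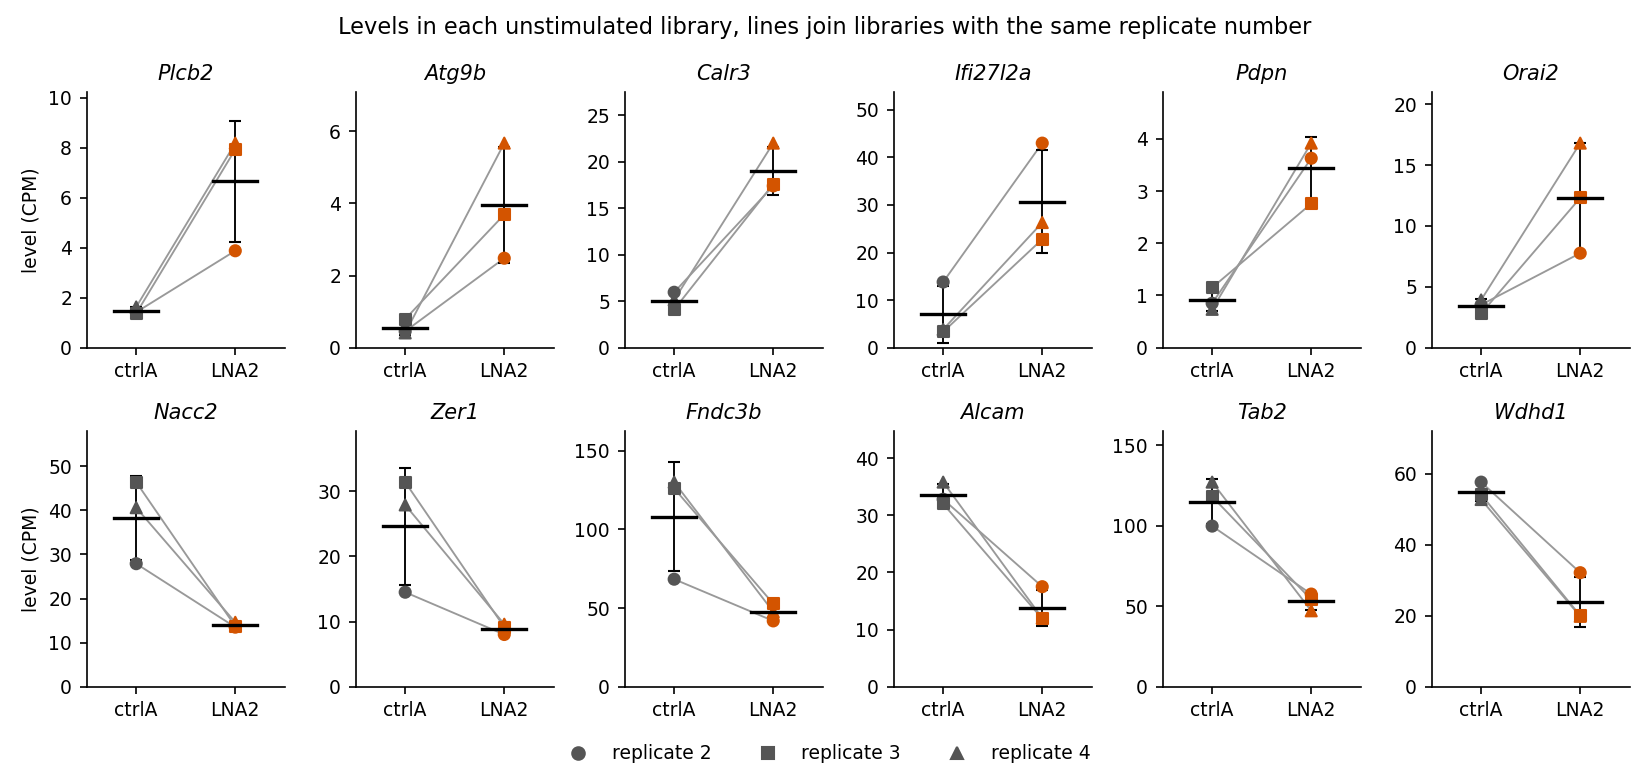
Levels in CPM of 6 genes that rose (upper row) and 6 that fell (lower row) in each unstimulated library, with lines between libraries of the same replicate number, horizontal bars for the mean and whiskers for the SD of 3 libraries. In all 12 panels the 3 LNA2 libraries lie on one side of the 3 ctrlA libraries, and for Ifi27l2a the replicate 2 pair lies above the others.

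Whether these levels are particular to LNA2 was examined with the unstimulated LNA1 libraries, which target the same transcript. LNA1 against ctrlA gave 90 calls (0.602%), of which 74 were higher (0.495%) and 16 lower (0.107%), and a direct contrast of LNA2 with LNA1 gave 307 (2.05%), of which 134 were higher (0.896%) and 173 lower (1.16%) with LNA2. These comparisons share libraries with that of LNA2 and ctrlA, so mainly values of single genes are set side by side here. In the direct contrast 8 of the 15 described rises and 12 of the 15 described falls were called. Tab2 had 114 ± 7.65 CPM with LNA1 (SD, n = 3), close to the 115 ± 14.2 CPM of ctrlA, and LNA2 differed from LNA1 by -1.11 on the log2 scale (adjusted p 0.00037). The same held for Nacc2 with 34.7 ± 7.9 CPM (difference -1.30, adjusted p 0.00101), Zer1 with 26.8 ± 9.62 CPM (-1.55, adjusted p 0.000281) and Wdhd1 with 52 ± 6.84 CPM (-1.13, adjusted p 0.000525). Among the rises, Orai2 had 3.44 ± 0.43 CPM with LNA1 (difference 1.81, adjusted p 0.000679) and Pdpn 0.998 ± 0.096 CPM (1.77, adjusted p 0.00421). For others the difference between the LNAs did not pass the test. Plcb2 had 3.64 ± 0.466 CPM with LNA1, between ctrlA and LNA2, with a log2 fold change against ctrlA of 1.29 (adjusted p 0.0313) and a difference of 0.83 (SE 0.23, adjusted p 0.0593) between the LNAs. Ifi27l2a had 23 ± 10.3 CPM with LNA1 (log2 fold change 1.79, adjusted p 0.000503; difference 0.46, adjusted p 0.218). Kif5c and Rab39b also rose with LNA1, by 1.73 (adjusted p 0.0174) and 1.51 (adjusted p 0.0133), with differences of 0.70 (adjusted p 0.181) and 0.75 (adjusted p 0.0984). Myo1g had a log2 fold change of 1.97 with LNA1 (adjusted p 0.0547) and a difference of -0.10 (adjusted p 0.941). Calr3 rose with LNA1 to 12.2 ± 0.85 CPM (log2 fold change 1.27, adjusted p 0.00386) and further with LNA2 (difference 0.64, adjusted p 0.0417). The number of calls in the direct contrast of LNA2 with LNA1 varied with the libraries used. It was 90 without LNA2 replicate 4, 146 without replicate 2, 175 without replicate 3 and 0 without replicate 4. In the fit without replicate 4, 1320 genes reached an unadjusted p below 0.05 in edgeR.

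The same contrast in isoproterenol-treated cells shares no library with the unstimulated one, but its libraries carry the same replicate numbers and entered the same fit. It shows whether the changes recur in those cells. There 823 genes were called (5.51%), 494 higher (3.3%) and 329 lower (2.2%). Of the 417 genes called in unstimulated cells, 410 had the same sign after stimulation and 295 were called in the same direction (187 higher and 108 lower), while 0 were called in the opposite direction. The shared genes were 70.7% of the unstimulated and 35.8% of the stimulated calls. Plcb2 rose by 1.85 in stimulated cells (adjusted p 0.00031), Atg9b by 2.85 and Calr3 by 1.69, and Nacc2 fell by 1.22 (adjusted p 0.000715), Tab2 by 1.26 and Rbms3 by 1.75 on the log2 scale. The exceptions among the 30 described genes were Il2ra (1.30, adjusted p 0.106), Afap1l1 (-0.50, adjusted p 0.351) and Hspb7 (0.01, adjusted p 0.994). The interaction, which tests whether the LNA2 change differs with stimulation, gave 0 calls in edgeR at an adjusted p below 0.05 (smallest 0.0697), 807 genes (5.4%) at an unadjusted p under 0.05 and 2 calls in DESeq2. A difference between the states was therefore not shown for any of the described genes, and the smallest unadjusted interaction p among them were 0.0167 for Hspb7, 0.0392 for Ranbp3l and 0.0456 for Kif5c. Without a filter on low counts the interaction gave 132 calls.

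**Figure D3:**
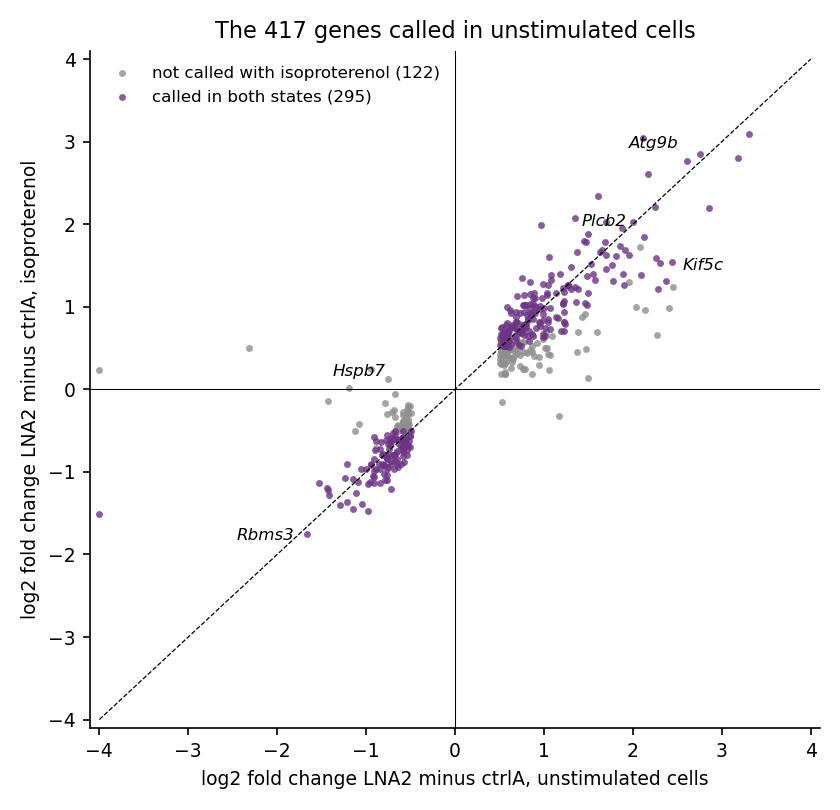
Log2 fold changes of LNA2 minus ctrlA in unstimulated (horizontal) and isoproterenol-treated cells (vertical) for the 417 genes called in unstimulated cells, with the dashed line for equal values and points beyond the axes drawn at the edge. Of these genes 410 lie in the quadrants of equal sign and the 295 called in both states (purple) follow the dashed line.

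Gene lists were then followed to describe pathways. The lists were written with earlier results of these data known, so their shares of calls are descriptions and not independent evidence. The genes that define adipocytes are given first. Of 23 tested adipocyte identity genes 0 were called, with a median log2 fold change of -0.08 against -0.02 over all genes. Their summed level overlapped between groups, at 28487 to 35049 CPM with LNA2 and 32693 to 39679 with ctrlA. On the log2 scale Pparg differed by -0.17 (SE 0.06, adjusted p 0.145), Adipoq by 0.04 (SE 0.08, adjusted p 0.845), Fabp4, the fatty acid carrier of adipocytes, by -0.20 (SE 0.09, adjusted p 0.259) and Ucp1 by -0.40 (SE 0.31, adjusted p 0.575). At an adjusted p below 0.05 without a limit on the fold, which 4.8% of all genes met, the hormone Retn was higher (0.48) and Pck1, an enzyme of glyceroneogenesis, lower (-0.40). Of 22 tested thermogenic genes 15 were negative (median -0.17), where 8147 of all 14949 genes were, and their summed level was 1093 to 1133 CPM with LNA2 and 1204 to 1313 with ctrlA. Of them 2 were called, where 2.79% of all genes were. Ckb, the brain-type creatine kinase, rose by 1.57 (SE 0.40, adjusted p 0.0306) and Cpt1b, which admits fatty acids to the mitochondrion, fell by 0.60 (SE 0.12, adjusted p 0.00962). Ckb had 1.65, 1.7 and 2.45 CPM with LNA2 against 0.624, 0.722 and 0.571 CPM, without overlap, but 5 of the 6 fits that left out a library did not call it, all except that without LNA2 replicate 3. With LNA1, Ckb had a log2 fold change of 2.19 (adjusted p 0.0133). Cpt1b had 11, 16.3 and 16.3 CPM against 13.1, 25.1 and 29.6 CPM, its groups overlapped because ctrlA replicate 2 was low, and it was not called without LNA2 replicate 3, ctrlA replicate 4 or LNA2 replicate 4.

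Most tested genes of mitochondrial fuel use had small negative values. All 21 tested genes of fatty acid oxidation had negative log2 fold changes (median -0.24), 9 of them had an adjusted p below 0.05 and 1 was called. Their summed level was 6041 to 7088 CPM with LNA2 and 7469 to 8278 with ctrlA. Over all 14949 genes 8147 were negative, 4.8% had an adjusted p below 0.05 and 1.03% were called lower. The called gene, Acadl, the long-chain acyl-CoA dehydrogenase, had 411, 451 and 385 CPM with LNA2 and 539, 656 and 584 CPM with ctrlA, without overlap (log2 fold change -0.51, SE 0.09, adjusted p 0.00521). It lies close to the limit of 0.5 and was not called without ctrlA replicate 2, ctrlA replicate 3 or LNA2 replicate 4, nor when ribosomal RNA and mitochondrial genes were removed. Acadm, the medium-chain dehydrogenase, was lower by a log2 fold change of -0.45 (adjusted p 0.013), Decr1 of -0.44 (adjusted p 0.0105), and Hadha, a subunit of the trifunctional protein, of -0.37 (adjusted p 0.0196). Called genes outside the list included Cpt1b, given above with the thermogenic genes, and Acaa1b, a thiolase of peroxisomal fatty acid oxidation, named after its values were seen. Acaa1b had 170, 108 and 128 CPM with LNA2 and 229, 190 and 226 CPM with ctrlA, without overlap (log2 fold change -0.67, SE 0.17, adjusted p 0.0296), and of the 6 fits that left out a library only that without LNA2 replicate 2 called it. It overlaps Dlec1 on the other strand, which had 0.165 to 0.897 CPM, and reads shared with its close paralog Acaa1a may be split between them. Of 26 nuclear-encoded respiratory chain genes 25 were negative (median -0.18), 4 had an adjusted p below 0.05 (among them Ndufs1 at -0.31, Atp5b at -0.24 and Cox7c at -0.22) and 0 were called. Their summed level overlapped between groups, at 9831 to 13230 CPM with LNA2 and 11492 to 14565 with ctrlA. The 13 genes of the mitochondrial genome, of which 10 were negative and 3 positive, had a median of -0.07 and 0 calls.

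In the list of p53 targets and DNA damage genes, calls were in the other direction. Of 31 tested genes 23 had positive and 8 negative log2 fold changes (median 0.18). Of them 5 were called higher and 0 lower, where 1.76% of all genes were called higher, and 10 had an adjusted p below 0.05, all of them higher, where 4.8% of all genes met this limit in either direction. Mdm2, the ubiquitin ligase that limits p53, had 129, 130 and 158 CPM with LNA2 and 102, 87.4 and 102 CPM with ctrlA (log2 fold change 0.52, SE 0.08, adjusted p 0.00185). Eda2r, a receptor of the tumour necrosis factor family, had 14.5, 12.2 and 11.8 CPM against 8.79, 5.2 and 6.36 CPM (0.96, SE 0.16, adjusted p 0.00229). Neither gene overlapped between the groups. Phlda3, an inhibitor of Akt, rose by 0.76 (SE 0.14), Gadd45b, a stress-response gene, by 0.76 (SE 0.17) and the RNA-binding protein Zmat3 by 0.62 (SE 0.10). With LNA1 the 5 genes had log2 fold changes of -0.31 to 0.16, and LNA2 differed from LNA1 for Mdm2 (adjusted p 0.000833), Eda2r (0.00086), Zmat3 (0.00294) and Phlda3 (0.00356) but not by this test for Gadd45b (0.0657). Without LNA2 replicate 4 the list held 3 calls, without replicate 3 also 3, and without replicate 4 or without the replicate term 0. All 5 genes also lost their call with glmTreat, which tests against the fold limit. Gadd45b was not called without ctrlA replicate 2, LNA2 replicate 2 or ctrlA replicate 4. Mdm2 was not called without ctrlA replicate 3 or LNA2 replicate 4, and Phlda3 without LNA2 replicate 4.

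Immune and stress lists held single calls. Over all genes tested 2.79% were called, 1.76% higher and 1.03% lower, and 4.8% had an adjusted p below 0.05. Of 29 interferon response genes and RNA sensors, Ifi27l2a alone was called, the median was 0.22 and 25 had a positive sign, where 8147 of all 14949 genes were negative. Their summed level overlapped between groups, at 588 to 781 CPM with LNA2 and 553 to 764 with ctrlA. Of 28 inflammatory and NF-κB genes, Vcam1, a leukocyte adhesion molecule, fell by 0.74 (SE 0.10, adjusted p 0.000697), from 150, 38 and 39.1 CPM to 95.8, 23.6 and 20.5 CPM in replicates 2, 3 and 4, and Tnfaip2 had a log2 fold change of 0.47 (adjusted p 0.00589). Vcam1 was far higher in both libraries numbered 2 than in the others, so the groups overlapped although LNA2 was lower in each pair. Of 31 genes of endoplasmic reticulum stress, Calr3 was called, and Atf3, a stress-induced transcription factor, was lower (-0.34, adjusted p 0.0226). Of 14 listed macrophage markers 4 had enough counts to be tested, 3 positive and 1 negative, with a median of 0.83 and 1 call. Cd68, a lysosomal protein, had 16.4, 13.7 and 26.1 CPM against 7.83, 8.88 and 12 CPM (log2 fold change 0.95, SE 0.17, adjusted p 0.00344), while Csf1r had 5 to 33 counts with LNA2 and 2 to 8 with ctrlA and Adgre1 was at 0. Trem2, a receptor of myeloid cells that is outside the list and was chosen after its values were seen, had 2.48, 4.68 and 4.97 CPM with LNA2 against 2.04, 1.37 and 1.71 CPM, without overlap (log2 fold change 1.18, SE 0.29, adjusted p 0.0254). The summed level of the macrophage list was 23 to 37.8 CPM with LNA2 and 17.3 to 22.6 CPM with ctrlA, and its part in the other results was not tested. The endothelial, muscle, and lymphocyte and neuron lists, with 3 tested genes each, held 0 calls. In bulk RNA a change in the number of cells of a type and a change in RNA per cell cannot be told apart.

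The extracellular matrix list held 35 tested genes with a median of -0.19, of which 29 were negative and 3 called lower, against 8147 negative and 1.03% called lower of all 14949 genes. Its summed level overlapped between groups, at 6371 to 13936 CPM with LNA2 and 6584 to 16599 with ctrlA. For the lists after this one, 1.76% of all genes were called higher and 2.79% in either direction. Postn, the matrix protein periostin, fell by 0.78 (SE 0.14), and the fibrillar collagen genes Col3a1 and Col1a2 by 0.63 (SE 0.09) and 0.53 (SE 0.12) on the log2 scale. Col1a2 was not called in 4 of the 6 fits that left out a library, those without replicate 3 or 4 of either group. Col3a1 had 110, 166 and 140 CPM against 155, 284 and 216 CPM, and its groups overlapped between LNA2 replicate 3 and ctrlA replicate 2. Of the 30 TGF-β and BMP genes, Ccn2, a secreted matricellular factor, rose by 1.49 (SE 0.31, adjusted p 0.0108), from 2.33, 3.9 and 4.32 CPM to 5.53, 9.99 and 13.8 CPM, and was not called without ctrlA replicate 2, ctrlA replicate 3 or LNA2 replicate 4. Among 14 preadipocyte markers, the smooth muscle actin Acta2 fell by 0.75 (adjusted p 0.0202) and Ly6a, the surface antigen Sca1, rose by 0.84 (adjusted p 0.0453), and both calls were lost in 5 or more of the 6 fits without a library. Sign counts of the next lists stand beside the same 8147 of 14949 genes, and their calls beside the 2.79% of all genes. Of 26 insulin and glucose genes 21 were negative (median -0.07), and Hk1, a hexokinase, rose by 0.57 (SE 0.11, adjusted p 0.00727), a call lost without ctrlA replicate 3 or LNA2 replicate 4. The lists for lipolysis, triglyceride synthesis, cholesterol and the cell cycle held 0 calls among 15, 19, 23 and 32 tested genes, of which 10, 13, 19 and 28 were negative, and 2 cell cycle genes, Tyms (-0.28) and Ccnb2 (-0.48), were lower at an adjusted p below 0.05. The 0 covers listed genes only. Outside the cell cycle list Wdhd1, described above, Ect2 (-0.79, adjusted p 0.00152) and Diaph3 (-0.92, adjusted p 0.000886) were called lower. The last of these were picked after their values were seen, and related genes called higher were not counted.

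The genes around Plcb2 and Nacc2 were examined as their pathways. Over all genes 2.79% were called and 4.8% had an adjusted p below 0.05, against which the counts of the following lists stand. Of 26 tested phosphoinositide and phospholipase C genes, Plcb2 rose and Prkce, a protein kinase C isoform activated by diacylglycerol, fell by 0.60 (SE 0.11, adjusted p 0.00593), a call lost without LNA2 replicate 4. The other phospholipase C β genes were not called, with log2 fold changes of -0.29 for Plcb1 (adjusted p 0.158), -0.20 for Plcb3 (0.355) and -0.05 for Plcb4 (0.94). Of 16 genes of the NACC proteins and the NuRD complex, Nacc2 fell, its paralogue Nacc1 had a log2 fold change of -0.01 (adjusted p 0.987), and the histone-binding subunit Rbbp7 was lower by a value of -0.21 (adjusted p 0.0464). In the adrenergic and cAMP list of 30 genes, Prkacb, a catalytic subunit of protein kinase A, fell by 0.57 (SE 0.11, adjusted p 0.00898) and the immediate-early gene Nr4a1 rose by 0.56 (SE 0.13, adjusted p 0.0243). Nr4a1 was not called in 5 of the 6 fits that left out a library, all but that without LNA2 replicate 3, and Prkacb in 3, those without ctrlA replicate 3, ctrlA replicate 4 or LNA2 replicate 4. The phosphodiesterases Pde4b (-0.47, adjusted p 0.00657) and Pde4d (-0.34, adjusted p 0.0243) were below the limit on fold. Of 33 autophagy genes Atg9b was called, and the cargo receptor Sqstm1 was higher with a log2 fold change of 0.30 (adjusted p 0.0294). In this list 3 genes were higher and 1 lower at an adjusted p below 0.05. The list of RNase H and paraspeckle factors held 0 calls among 21 genes, with -0.04 for Rnaseh1 (adjusted p 0.911) and -0.38 for the paraspeckle RNA Neat1 (adjusted p 0.0353).

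**Figure D4:**
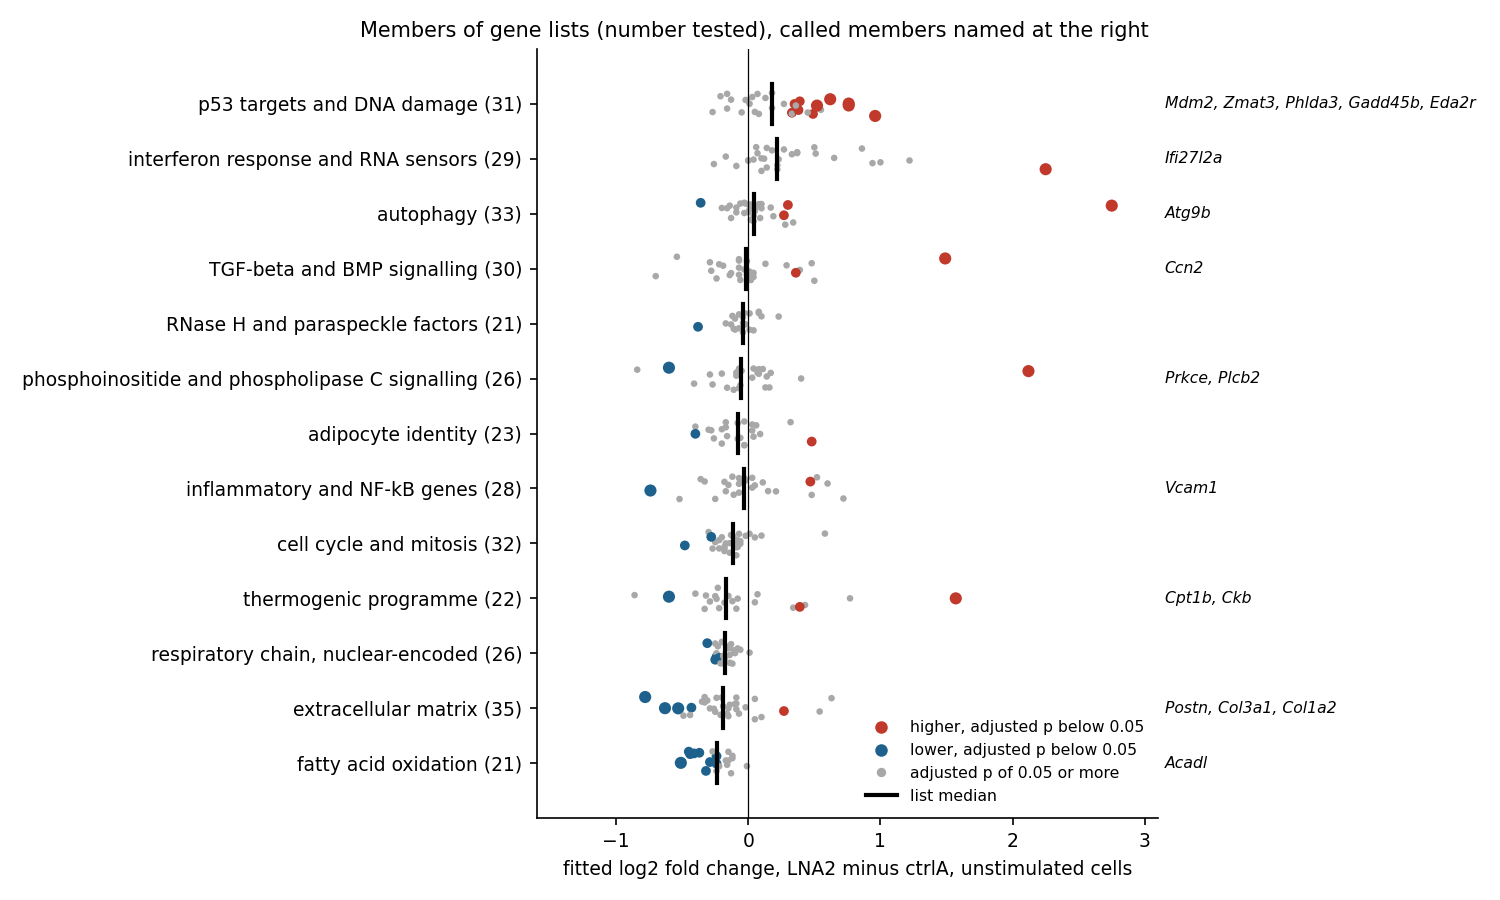
Fitted log2 fold changes of LNA2 minus ctrlA for the tested members of 13 gene lists, with 1 point per gene, a black bar at the list median and called members named at the right. The lists were written with earlier results of these data known. The points of the list of p53 targets and DNA damage genes extend to the right, with 10 genes higher at an adjusted p below 0.05, and those of fatty acid oxidation lie to the left of 0, with 9 lower.

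Complementarity to LNA2 was searched in the spliced transcripts of 14936 tested genes, and the longest run of paired bases was recorded for each gene. Away from Gm15551 the longest run in a tested gene was 13 of 16 bases, and 19 genes held a run of 11 or more. Of these 19, 6 were called lower (31.6%) and 0 higher, against 1.03% and 1.76% of all genes tested. At a run of exactly 10 bases 7 of 77 genes were lower (9.09%), at 9 bases 9 of 531 (1.69%), and at 8 or fewer 132 of 14309 (0.922%). The shares called higher were 3.9% at exactly 10 bases (3 genes), 1.69% at 9 and 1.75% at 8 or fewer. When the runs were counted for the other oligonucleotides, in the same LNA2 comparison, 1 of 103 genes with a run of 11 or more complementary to LNA1 was lower (0.971%) and 0 of 14 for ctrlA. The shares called lower at exactly 9 bases were 1.3% for LNA1 and 2.63% for ctrlA, and at exactly 10 bases 0.275% and 1.96%. With 12 or more bases 1 of 20 genes was lower for LNA1 (5%) and 0 of 3 for ctrlA. These shares are descriptions without a test, the limits of 9 to 11 bases were chosen after the data had been seen, and genes with long runs also had longer transcripts (median exonic length 4824 bases at 11 or more, against 3935 over all genes). With up to 3 mismatches over the 16 bases and no gaps, 5 of 133 genes were lower (3.76%). For LNA1 these were 6 of 315 (1.9%) and for ctrlA, over its 15 bases, 4 of 240 (1.67%). With up to 2 mismatches 0 of 4 genes were lower for LNA2, 0 of 20 for LNA1 and 0 of 11 for ctrlA.

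The sites below are those of the called genes, followed by the longest runs in genes that were not called, each aligned to the full 16-base site with capitals for the run that pairs with LNA2.
Utrn: CAACGCCGTGCTccac
Tfrc: tacttCCGTGCTACTT
Rab11fip3: acacaCCGTGCTACTT
Arf3: agctGCCGTGCTACTc
Rreb1: cccaGCCGTGCTACTa
H2aw: ccagGCCGTGCTACTg
Hoxb3os: gctCGCCGTGCTACTT
Ehd3: CAACGCCGTGCTtgaa
Arhgef4: CAACGCCGTGCTgata
Gm15964: CAACGCCGTGCTtgtc
The called genes carry different parts of the site, Utrn the 5′ part and the others the middle and 3′ part, and both parts are also present in genes that were not called. The run in Utrn, the gene of the cytoskeletal protein utrophin, lies in the coding sequence of exon 6 (GRCm38, chr10:12747927-12747938, minus strand). Utrn had 94.7, 130 and 91.7 CPM with LNA2 and 130, 254 and 192 CPM with ctrlA, where LNA2 replicate 3 and ctrlA replicate 2 were equal at this rounding and LNA2 was lower in each pair (log2 fold change -0.82, SE 0.14, adjusted p 0.00274). LNA2 also differed from LNA1 by -1.20 (adjusted p 0.00036). Tfrc, the transferrin receptor of cellular iron uptake, holds its run in the coding sequence of exon 18 (chr16:32628526-32628536, plus strand). It had 381, 293 and 208 CPM against 556, 496 and 425 CPM, without overlap (log2 fold change -0.77, SE 0.14, adjusted p 0.00524), and a log2 fold change of -1.10 in stimulated cells (adjusted p 0.00031). With LNA1 the value for Tfrc was -0.42 (adjusted p 0.225), and the LNAs did not differ by the test (-0.35, adjusted p 0.221).

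Arf3, a GTPase of the Golgi, holds the run in its 3′ untranslated region (exon 5, chr15:98739558-98739568, minus strand) and had 80.3, 124 and 107 CPM against 115, 202 and 215 CPM (log2 fold change -0.75, SE 0.12, adjusted p 0.00193). Rab11fip3, an effector of recycling endosomes, has it in the coding sequence of exon 1 (chr17:26068768-26068778, minus strand) and fell by 0.69 (SE 0.12, adjusted p 0.00282) on the log2 scale. Its value in stimulated cells was -0.25 (adjusted p 0.161). Rreb1, a zinc finger transcription factor, has it in the 3′ untranslated region of exon 13 (chr13:37950293-37950303, plus strand) and fell by 0.64 (SE 0.13, adjusted p 0.0103). For Rreb1 the LNAs did not differ by the test (-0.41, adjusted p 0.117). The groups of Arf3, Rab11fip3 and Rreb1 overlapped, although LNA2 was lower in each pair. H2aw, a histone H2A gene, has it in the coding sequence of its single exon (chr11:58955077-58955087, plus strand) and fell by 1.22 (SE 0.24, adjusted p 0.00777). This site also belongs to a transcript of Trim17, which is 1 of the 19 genes and was not called (log2 fold change -0.30, adjusted p 0.792). The 19 genes thus represent 18 sites. The groups of H2aw overlapped as well, with LNA2 lower in each pair. The histone genes H1f2, H2bc4, H2bc21 and H2ax, which are not among the 19, were also called lower. They were picked after their values were seen, and histone genes called higher were not counted. The part of the site in the fall of H2aw was not tested. The calls of Arf3, Rab11fip3 and Utrn held in every fit without a single library, those of Tfrc and H2aw were lost without LNA2 replicate 4, and that of Rreb1 without ctrlA replicate 3, LNA2 replicate 3 or LNA2 replicate 4. Of the 19 genes, 3 were called lower without LNA2 replicate 4, 4 without replicate 3, and 0 without replicate 4, without the replicate term or with glmTreat, which tests against the fold limit.

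Among the genes with 11 to 13 paired bases, the longest runs were not those of the called genes. Hoxb3os, with 13 bases in a non-coding exon (chr11:96354599-96354611, minus strand), had 13.4, 16 and 17.2 CPM with LNA2 and 15.5, 13.9 and 13.7 CPM with ctrlA (log2 fold change 0.11, SE 0.12, adjusted p 0.718). Its exons overlap Hoxb2 and Hoxb3 on the opposite strand. Of the 5 genes with 12 or more bases Utrn alone was called, and Ehd3 had a log2 fold change of -0.30 (SE 0.26), Arhgef4 of 0.66 (SE 0.35) and Gm15964 of -0.02 (SE 0.45). Ehd3, Arhgef4 and Gm15964 were low, at 0.248 to 4.79 CPM over the 6 libraries. Ttpal, with 11 bases in its coding sequence, had 27.8, 30.9 and 26 CPM against 34.7, 39 and 41.4 CPM, without overlap, and an adjusted p of 0.0166 at a log2 fold change of -0.44, short of the limit. In stimulated cells 4 of the 19 genes were lower (21.1%, against 2.2% of all genes), and with LNA1 in unstimulated cells 0 of the 19 were lower, against 0.107%. LNA2 against LNA1, which shares the LNA2 libraries, gave 4 of 19 (21.1%), against 1.16% of all genes. The sign was negative for 14 of the 19 genes in unstimulated and 14 in stimulated cells against ctrlA, and for 18 against LNA1. Over all 14949 genes 8147, 7742 and 7384 were negative in these contrasts. For LNA1 against ctrlA in unstimulated cells 7 of the 19 were negative, and 8339 of all genes.

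Genes called lower with LNA2 also had long gene bodies. Their median span from first to last annotated base was 57453 bases, against 20922 bases for the higher genes and 18143 bases for all tested genes. Of the lower genes 60 (39%) spanned more than 100000 bases, against 19 of the higher (7.22%) and 10.3% of all. Rbms3 (chr9:116572746-117629913), Bbs9 and Btbd9 are examples among the described genes. The median exonic length of the lower genes was 5840 bases against 3935 bases over all, a smaller contrast than in span. In stimulated cells 5.9% of genes over 100000 bases were called lower, against 2.2% of all, and in unstimulated cells 3.89% against 1.03%. With LNA1 these shares were 0.259% and 0.107%. The median level of the lower genes was 24.6 CPM, close to the 21 CPM of all genes and above the 7.85 CPM of the higher genes, in values not corrected for transcript length. Introns were not searched for complementary sites, and the part that span, length and level have in the calls was not tested.

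**Figure D5:**
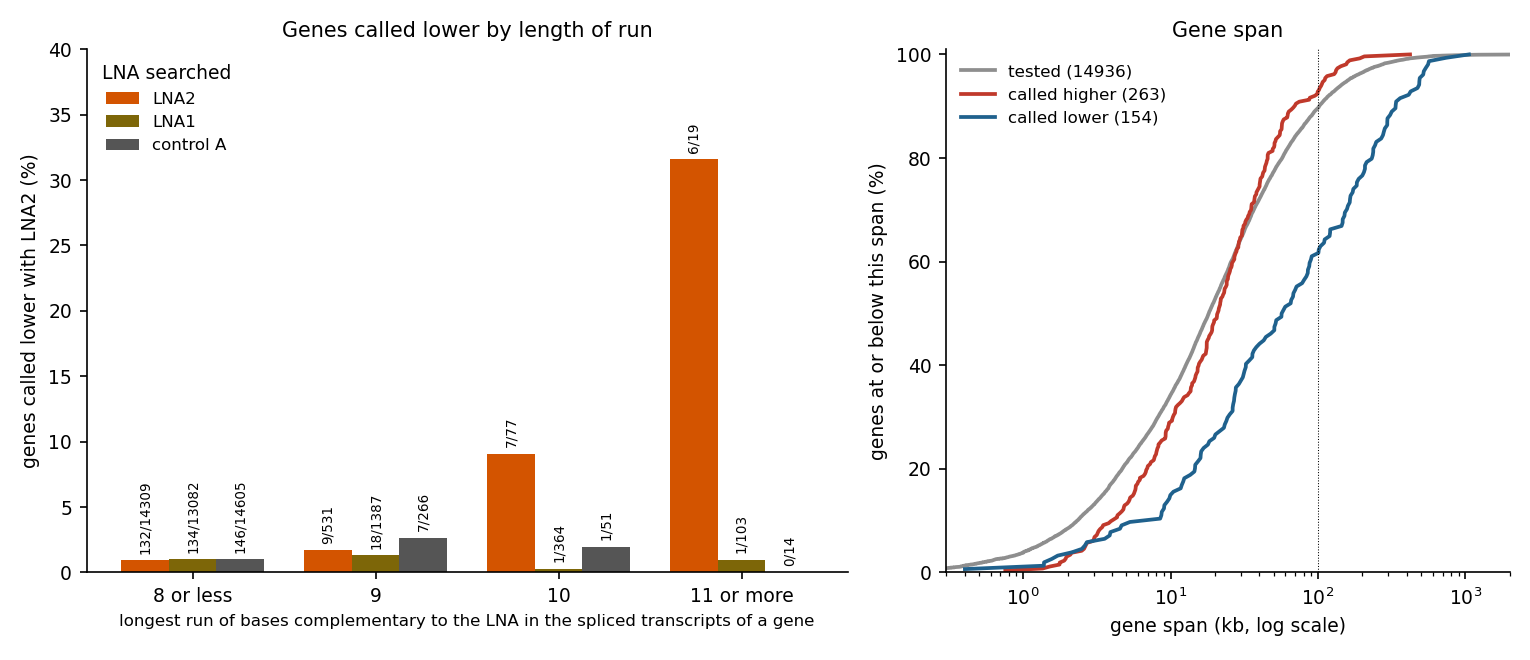
Left, percentage of genes called lower with LNA2 by the longest run of bases complementary to LNA2, LNA1 or control A in their spliced transcripts, with called and all genes as numbers above the bars; right, cumulative percentage of genes by span in kilobases (log scale). The LNA2 bar reaches 31.6% at 11 or more bases while those of LNA1 and control A are 0.971% and 0, and the curve of the lower genes lies to the right, with 39% of them beyond 100000 bases.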

How the data were processed

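Paired-end, poly(A)-selected RNA-seq libraries were made by the authors with NEBNext Ultra II. Per the labels, reads were trimmed with cutadapt and quantified with Salmon on GRCm38 (Gencode M22), and the deposited values are estimated counts per gene, here whole numbers without normalization. Counts of all 18 libraries were fitted with edgeR 4.0.16 in R 4.3.3 (quasi-likelihood, TMM, filterByExpr with a minimum count of 10 and total of 15) with a term for each group and a replicate block, leaving 10 residual degrees of freedom. Contrasts were taken from this fit, p-values were adjusted by Benjamini-Hochberg over 14949 genes, and SE is the log2 fold change divided by the root of F. The block follows the pairing by replicate number in the labels and the correlations given above; the study's methods do not state one. Levels are CPM with TMM library sizes, and 3 counts correspond to 0.170 to 0.248 CPM in the 6 libraries, counting error only.

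Described genes are the 15 per direction with the largest change among called genes that did not overlap between groups, moved one way in every pair and averaged 1 CPM or more in the 6 libraries, leaving out anonymous gene names. The members and gene lists were chosen with earlier results of these data known. Complements of the LNAs were sought in 141767 spliced GENCODE M21 transcripts (GRCm38; 99.53% of listed genes), where gene bodies had been planned, because introns were not searched. Alternatives were DESeq2 1.42.0, RLE size factors, no block, the 6 libraries alone, no filter, removal of ribosomal RNA and mitochondrial genes, glmTreat, and each library or replicate left out.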

Additional observations from a re-analysis of the deposited data

How the results depend on the processing

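The 417 calls became 419 with RLE size factors, 424 with DESeq2, 423 without ribosomal RNA and mitochondrial genes, 505 with the 6 libraries alone and 605 without a filter, but 29 with no replicate block and 37 with glmTreat, which tests against the fold limit. Leaving out libraries or replicates gave 32 to 426. LNA2 against LNA1 gave 5 calls with no replicate block, 530 without a filter, 24 with glmTreat and 0 to 318 with libraries left out. The interaction gave 2 calls with DESeq2, 132 without a filter and 0 to 1 with replicates left out. The causes were not tested. Calls among genes with complementary runs, 1 at 12 or more bases, were 0 at 13 and at 14 or more, 22 at 9, 13 at 10, 6 at 11 and 5 with up to 3 mismatches, the last 4 limits being chosen after seeing the data. Gm15551, not fitted with DESeq2 or glmTreat, was negative in the other fits (-1.98 to -0.23 with libraries left out). For 64 called genes under 16 alternatives, 771 of 1024 values kept the call, 253 lost it and 0 reversed. Uncalled genes with a run of 11 or more bases changed sign: Gm15964 was 0.03 with no replicate block, 0.01 with the 6 libraries alone and -0.53 to 0.55 with libraries left out, and Abca2 was -0.04 with no replicate block and -0.09 to 0.19. With libraries left out Hoxb3os ranged from -0.01 to 0.29, Trim17 from -0.70 to 0.25, Ccsap from -0.04 to 0.17, Atoh8 from -0.37 to 0.05 and Ehd3 from -0.55 to 0.04. Depth limits Gm15551, with 17 counts in the LNA2 libraries and 29 in ctrlA.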
